A study of Mus musculus with 12 samples.

Results

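The 9 genes described here encode the vasoactive endothelin and angiotensin systems and endothelial nitric oxide synthase, and they were taken by name (Edn1, Ednra, Ednrb, Ece1, Ace, Agt, Agtr1a, Agtr2 and Nos3) from a table of 55679 mouse genes. All 9 were found, and the rule is the gene name alone. Bulk RNA was sequenced from whole lung and whole heart of 6 male 129S6/SvEvTac mice, 3 Adam19 wildtype (WT) and 3 homozygous Adam19-tdTomato knockouts (KO), on stranded total RNA libraries. The mice of the study were 9 to 13 weeks old, and each mouse gave 1 lung and 1 heart library, so that there were 12 libraries in 4 groups of 3. In the KO allele exons 6 and 7 of Adam19, which encodes a membrane-bound metalloprotease, are replaced by a tdTomato construct in every cell of the body, and the exons before them are still present. WT and KO mice carry identifiers with no prefix in common, so that a difference between litters or cages, if the prefix marks one, and genotype cannot be told apart. The study reported differential expression between KO and WT for the lung, and the Adam19 transcript for both tissues. The shared mice also allow lung to be compared with heart.

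Endothelin-1 is a peptide made mainly by endothelial cells as a precursor that endothelin-converting enzyme cleaves. It constricts vessels through the ETA receptor on smooth muscle, while the ETB receptor on endothelial cells releases nitric oxide and clears the peptide. Angiotensinogen is cleaved by renin to angiotensin I, which angiotensin-converting enzyme on endothelial cells, abundantly those of the lung, turns into angiotensin II, and nitric oxide made by endothelial nitric oxide synthase relaxes vessels against both peptides.

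Several of these genes have listed transcripts that begin at separate starts, among them Ece1, Ace, Agtr1a and Ednrb. Coding stretches of Ece1 and Ace transcripts are shown here because the values of these transcripts are given further on. The sequences were read from GRCm39, the assembly of the deposited values (mm39), with the exons of GENCODE vM39, and run 5′ to 3′ on the forward strand, with the annotated start codon in capitals. The first stretch, at chr4:137640893-137640940, is the first coding exon of the Ece1 transcript ENSMUST00000151110.4 and is carried by 1 of the 4 listed Ece1 transcripts. The second, at chr4:137641079-137641165, is a coding exon of 3 of the 4, and the other listed transcript overlaps it, so that it tells none apart. It is the whole coding part of the 172-nucleotide transcript ENSMUST00000130407.3. In ENSMUST00000151110.4 it follows the first stretch, so that its capitals are not the start codon of that transcript. The third, at chr11:105866034-105866229, opens the Ace transcript ENSMUST00000001964.8, which starts 7565 bases inside the gene and encodes the germ cell form of the enzyme, and 1 of the 4 listed Ace transcripts carries it.
Ece1, own first coding exon: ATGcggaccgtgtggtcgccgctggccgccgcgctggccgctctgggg
Ece1, shared coding exon: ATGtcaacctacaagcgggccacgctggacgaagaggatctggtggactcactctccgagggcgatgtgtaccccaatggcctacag
Ace, first coding exon of the inner start: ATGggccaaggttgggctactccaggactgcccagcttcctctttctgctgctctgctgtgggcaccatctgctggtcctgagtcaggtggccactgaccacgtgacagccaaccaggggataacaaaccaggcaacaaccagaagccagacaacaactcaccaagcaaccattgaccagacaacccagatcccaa

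Libraries held 17674788 to 28043361 estimated counts in the lung and 18392292 to 35862932 in the heart. The RNA gene Rn7s1 took 2.1% to 34% of the summed normalized abundance in the lung libraries and 2.7% to 11.8% in the heart libraries. Values are log2 normalized abundances as deposited, and a gene was called where limma's adjusted p (Benjamini-Hochberg over all genes tested) was under 0.05, the fold change at least 1.5 and the higher group mean at least 6. Adam19 had values of 9.14, 9.41 and 9.12 in WT lung, of 4.44, 3.21 and 3.50 in KO lung, of 9.17, 9.25 and 10.27 in WT heart and of 6.67, 6.01 and 6.56 in KO heart. The genotypes were apart in both organs, and Adam19 was called in each (log2 fold changes of −5.51 in lung, limma adjusted p = 0.000186, and −3.14 in heart, limma adjusted p = 0.00558). On summed transcripts the log2 fold changes of Adam19 were larger, −8.87 in lung and −7.07 in heart. Markers of heart muscle (5 of 5 found) had a summed log2 level of 20.5 to 20.8 in the hearts and 12.8 to 14.4 in the lungs, and markers of lung epithelium (5 of 5) 18.5 to 18.9 in the lungs and 6.06 to 10.5 in the hearts. None of these 10 markers was at 0 in every library of a group.

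Between lung and heart, RNA for endothelin-1, its converting enzyme, the ETB receptor and angiotensin-converting enzyme was higher in the lung. RNA for angiotensinogen, the angiotensin type 1a receptor and endothelial nitric oxide synthase was higher in the heart. The proteins and peptides were not measured in these libraries. With all 6 mice, 7 of the 8 members tested were called, 4 higher in lung and 3 higher in heart, beside 51.3% of the 17666 genes tested (30.1% higher in lung, 21.2% higher in heart). The 7 called members were also the ones whose lungs and hearts did not overlap, as in 57.4% of all genes. Of all calls 58.7% were higher in lung, 76.3% with libraries scaled by their totals and 50.4% with the median gene centred, while the same 7 members were called in the same direction under both. The median absolute log2 fold change was 2.14 over the 8 members and 1.07 over all genes tested. Agtr2 did not pass the filter on low values and was not tested. In bulk tissue, a different number of cells of a type and a different amount of RNA per cell cannot be told apart.

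**Figure D1:**
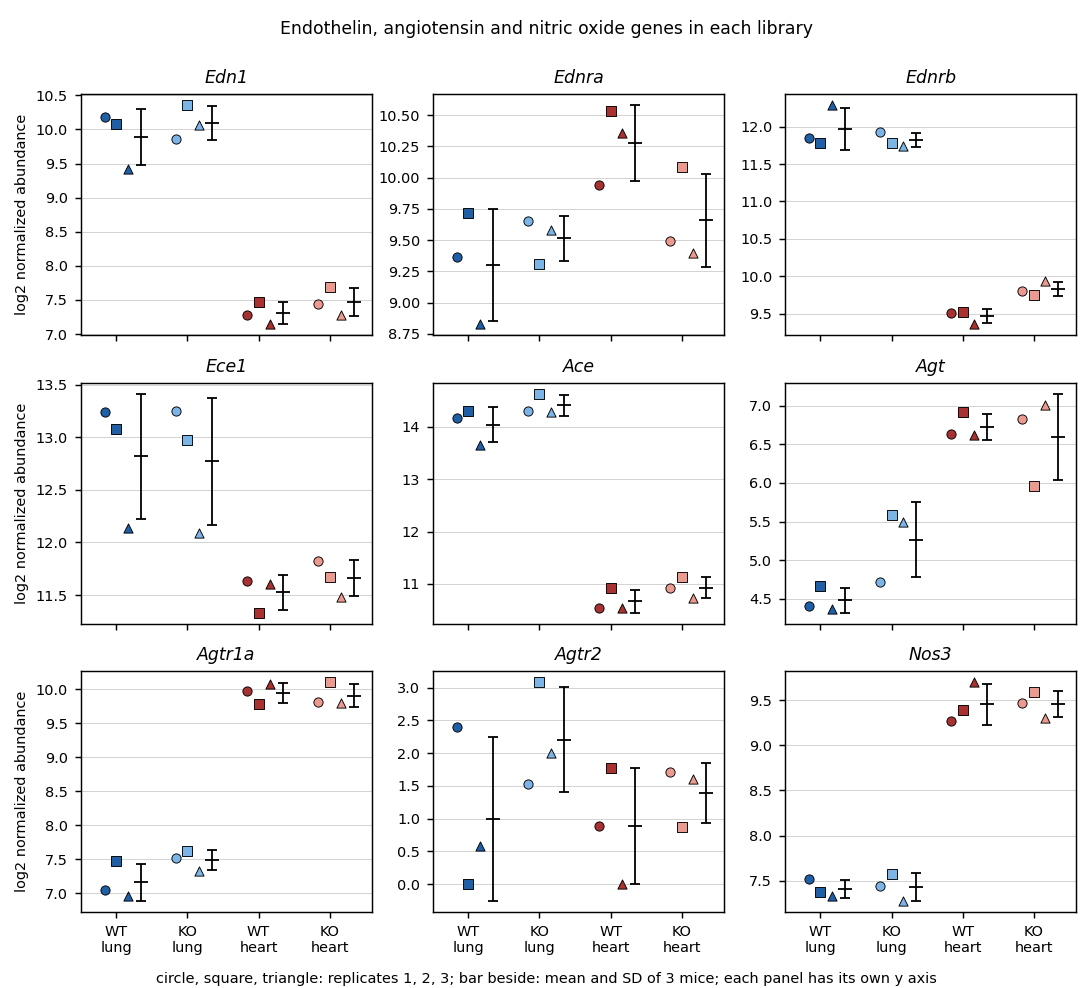
Log2 normalized abundance (y axis, a separate scale in each panel) of each of the 9 genes in the 12 libraries, grouped as WT lung, KO lung, WT heart and KO heart (x axis). Points are mice (circle, square and triangle for replicates 1, 2 and 3), and the bar beside them is the mean with its SD (n = 3). Lung and heart libraries lie apart for Edn1, Ednrb, Ece1, Ace, Agt, Agtr1a and Nos3, and overlap for Ednra and Agtr2.

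Edn1 (ENSMUSG00000021367.9), which encodes the endothelin-1 precursor, lies at chr13:42446301-42461466 on the forward strand. It was at 10.18, 10.08 and 9.42 in WT lung and 9.86, 10.36 and 10.06 in KO lung. Heart values were 7.28, 7.47 and 7.15 in WT and 7.43, 7.69 and 7.28 in KO. All 6 lungs lay above all 6 hearts, and the lowest lung, WT replicate 3, was still well above the highest heart. Edn1 was 6.09-fold higher in lung (log2 fold change 2.61, SE 0.15, limma adjusted p = 5.01e-09).

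Ece1 (ENSMUSG00000057530.15, chr4:137589530-137692542, forward strand) encodes the enzyme that cuts the endothelin precursor to the active peptide. It was at 13.24, 13.08 and 12.14 in WT lung and 13.25, 12.97 and 12.09 in KO lung. The WT hearts had 11.64, 11.33 and 11.60 and the KO hearts 11.82, 11.68 and 11.48. In each genotype replicate 3 was the lowest lung, about 1 log2 unit under the other two, so that the lungs spread far more than the hearts (SD 0.54 and 0.17, n = 6 each). Ece1 was 2.30-fold higher in lung (log2 fold change 1.20, SE 0.22, limma adjusted p = 0.000216), with no overlap of the tissues.

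Ednra and Ednrb encode the ETA and ETB receptors, and only the latter was called with all mice. Ednrb (ENSMUSG00000022122.16, chr14:104052053-104081900, reverse strand) was at 11.84, 11.78 and 12.29 in WT lung and 11.93, 11.79 and 11.75 in KO lung. The hearts stood at 9.51, 9.53 and 9.36 in WT and 9.80, 9.75 and 9.94 in KO. The tissues were far apart and the lungs close together except for WT replicate 3, the highest, and Ednrb was 4.75-fold higher in lung (log2 fold change 2.25, SE 0.10, limma adjusted p = 4.34e-10).

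Ednra (ENSMUSG00000031616.8, chr8:78386590-78451552, reverse strand) was at 9.36, 9.72 and 8.83 in WT lung and 9.66, 9.31 and 9.58 in KO lung. Among the hearts, WT mice had 9.94, 10.53 and 10.36 and KO mice 9.50, 10.09 and 9.39. The KO hearts reached down among the lungs, while the WT hearts lay above every lung. With all mice the log2 fold change of lung over heart in Ednra was −0.56 (SE 0.17, limma adjusted p = 0.0105), or 1.47-fold, which is under the 1.5-fold threshold, and it was 0.0079 with libraries scaled by their totals, a scaling that shifts the median gene by 0.57. With the median gene centred (a shift of −0.22) it was −0.78 and called. Within WT mice it was −0.97 (SE 0.25, limma adjusted p = 0.00355) and called, though −0.54 and not called under the scaling by totals, beside 49.4% of all genes. Within KO mice it was −0.14 (SE 0.25, limma adjusted p = 0.622; 0.55 under the scaling by totals), beside 49.6% of all genes called, and the difference between these values is the genotype by tissue test given below. The other 7 members were called in WT and in KO mice, except that Agt in KO mice was −0.64 and not called under the scaling by totals. Over 2452 bases Ednra overlaps the antisense gene Gm45714, which was listed at 0 in every library.

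Ace (ENSMUSG00000020681.15, chr11:105858469-105880790, forward strand) encodes angiotensin-converting enzyme and had the largest difference between the tissues. It was at 14.16, 14.31 and 13.66 in WT lung and 14.30, 14.63 and 14.28 in KO lung. Heart values were 10.55, 10.92 and 10.54 in WT and 10.93, 11.13 and 10.73 in KO. Every lung was more than 2 log2 units above every heart, with WT replicate 3 again the lowest lung. Ace was 10.7-fold higher in lung (log2 fold change 3.42, SE 0.13, limma adjusted p = 1.25e-10).

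Agt (ENSMUSG00000031980.11, chr8:125279301-125296716, reverse strand) encodes angiotensinogen, the precursor of the angiotensin peptides, and was low in both tissues. It was at 4.41, 4.67 and 4.37 in WT lung and 4.71, 5.59 and 5.49 in KO lung, which are 16.7 to 73.5 estimated counts. The WT hearts had 6.64, 6.92 and 6.62 and the KO hearts 6.83, 5.97 and 7.01. The lowest heart, KO replicate 2, came close to the highest lung, KO replicate 2 also, but did not reach it. Agt was 3.46-fold higher in heart (log2 fold change of lung over heart −1.79, SE 0.23, limma adjusted p = 1.12e-05). Agt and Agtr2 were the 2 members that the authors' table does not mark as detected. In GENCODE vM39 Agt overlaps the antisense gene Cog2 over 2450 bases. Its values are uncertain to that extent, because the use of strand in counting is not given in the sources used here.

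Agtr1a (ENSMUSG00000049115.16, chr13:30518942-30566850, forward strand) encodes the type 1a receptor, through which angiotensin II constricts vessels. It was at 7.05, 7.47 and 6.96 in WT lung and 7.51, 7.62 and 7.33 in KO lung. The hearts stood at 9.97, 9.78 and 10.08 in WT and 9.81, 10.11 and 9.81 in KO. The hearts formed a narrow band far above the lungs, and Agtr1a was 6.07-fold higher in heart (log2 fold change of lung over heart −2.60, SE 0.12, limma adjusted p = 6.27e-10). Its paralogue Agtr1b, 90.2% identical to it over 1134 aligned bases, was at 2.05 to 3.68 in the lungs and at 0 to 0.91 in the hearts.

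Agtr2 (ENSMUSG00000068122.11, chrX:21350763-21355403, forward strand), the type 2 angiotensin receptor, was barely detected in either organ. It was at 2.40, 0 and 0.59 in WT lung and 1.53, 3.08 and 2.0 in KO lung. Among the hearts, WT mice had 0.89, 1.78 and 0 and KO mice 1.71, 0.87 and 1.60. These are 0 to 12.1 estimated counts per library, and a count of 0 allows up to 3 reads, so that no order of the groups was detectable at this depth.

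Nos3 (ENSMUSG00000028978.13, chr5:24569787-24589475, forward strand), endothelial nitric oxide synthase, was at 7.52, 7.37 and 7.34 in WT lung and 7.44, 7.58 and 7.28 in KO lung. Heart values were 9.26, 9.39 and 9.70 in WT and 9.47, 9.59 and 9.31 in KO. The lungs spanned 0.30 log2 units and the hearts 0.44, and the gap between the tissues was several times wider. Nos3 was 4.10-fold higher in heart (log2 fold change of lung over heart −2.03, SE 0.11, limma adjusted p = 3.18e-09). It matches Atg9b over 294 bases and Gm15587 over 169 bases, both antisense. The uncertainty about strand given for Agt applies to those stretches too.

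**Figure D2:**
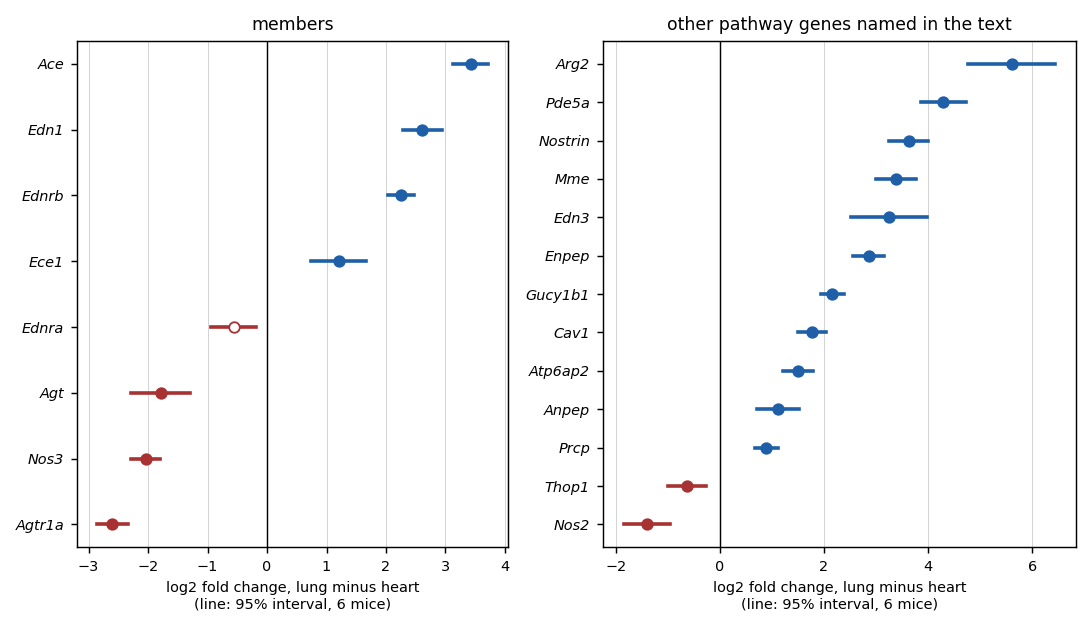
Log2 fold change of lung over heart (x axis) for the 8 members tested (left) and for the other pathway genes named in the text (right). Points are limma estimates over 6 mice, lines are 95% intervals, blue is higher in lung and red higher in heart. The open point is Ednra, which was under the fold threshold. Ace is highest at 3.42 and Agtr1a lowest at −2.60 among the members.

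Levels of different genes were set side by side as scaled reads per kilobase of transcript, with transcript lengths from GENCODE vM39. The lengths are approximate, since 13 of the 25 member transcripts have the same version in that release as in the deposited table. In the lung the means were 4017 for Ace, 2052 for Ece1, 966 for Ednrb and 442 for Edn1. They were 98.5 for Ednra, 76.8 for Agtr1a, 41.2 for Nos3, 5.09 for Agt and 0.954 for Agtr2. The lung libraries of Ece1 and Ednrb overlapped, and so did those of Ednra and Agtr1a, while the other neighbours in this order did not.

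In the heart the order per kilobase differed, and Ece1 led with a mean of 941. Agtr1a followed with 456, Ace with 372, Ednrb with 204, Nos3 with 170 and Ednra with 152. Edn1 had 71.2, Agt 17.4 and Agtr2 0.437. The heart libraries overlapped between Agtr1a and Ace, between Ednrb and Nos3 and between Nos3 and Ednra. The most abundant receptor of the 4 was thus Ednrb in the lung and Agtr1a in the heart. The Agt level rests on a length of 5927 nucleotides that may be longer than the transcript the authors counted, and the Ece1 level includes the 172-nucleotide transcript, which adds 9.37% to 30.6% of it in a library.

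Endothelial cells express several of these genes, and their markers differed between the tissues. The summed log2 level of 6 endothelial markers (6 of 6 found, none at 0) was 15.28 to 15.46 in the lungs and 13.73 to 13.83 in the hearts. Edn1, Ednrb, Ece1, Ace and Nos3 were therefore also set against the mean log2 level per kilobase of these markers in the same library. Relative to them, Ace was higher in lung than heart by 2.12 (SD 0.18), Edn1 by 1.30 (SD 0.25) and Ednrb by 0.94 (SD 0.44) log2 units, in 6 of 6 mice each. Nos3 went the other way, with a lung minus heart difference of −3.34 (SD 0.20) in 6 of 6 mice. That exceeds its difference without the markers by arithmetic, since the markers were higher in lung and Nos3 in heart. For Ece1 the difference was −0.23 (SD 0.43), with 4 of 6 mice in that direction (exact two-sided sign-flip test, p = 0.3125). The 6 of 6 results have an exact two-sided sign-flip p of 0.031, the smallest that 6 mice allow. After Benjamini-Hochberg adjustment over 24 tests of 8 ratios it was 0.107. With the smallest p at 0.031 for 6 mice and 0.1 for 3 against 3, no adjusted p under 0.05 was possible in this family. The adjusted values therefore cannot decide about these ratios.

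Between the endothelin receptors, the log2 ratio of Ednra to Ednrb per kilobase was −3.30, −2.91 and −4.31 in WT lung and −3.06, −3.28 and −3.00 in KO lung. In the heart it was −0.36, 0.22 and 0.21 in WT and −1.07, −0.45 and −1.32 in KO. The lungs thus held far less Ednra than Ednrb, and the WT hearts held about as much of one as of the other. The mean difference of lung from heart was −2.85 (SD 1.0), in 6 of 6 mice. All 3 KO hearts lay below all 3 WT hearts, with a mean difference of −0.97 (exact two-sided permutation p = 0.1, the smallest that 3 against 3 allow, and 0.27 adjusted over the 24 tests). The ratio of Edn1 to Ece1 was higher in lung by 1.53 log2 units (SD 0.40) in 6 of 6 mice.

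**Figure D3:**
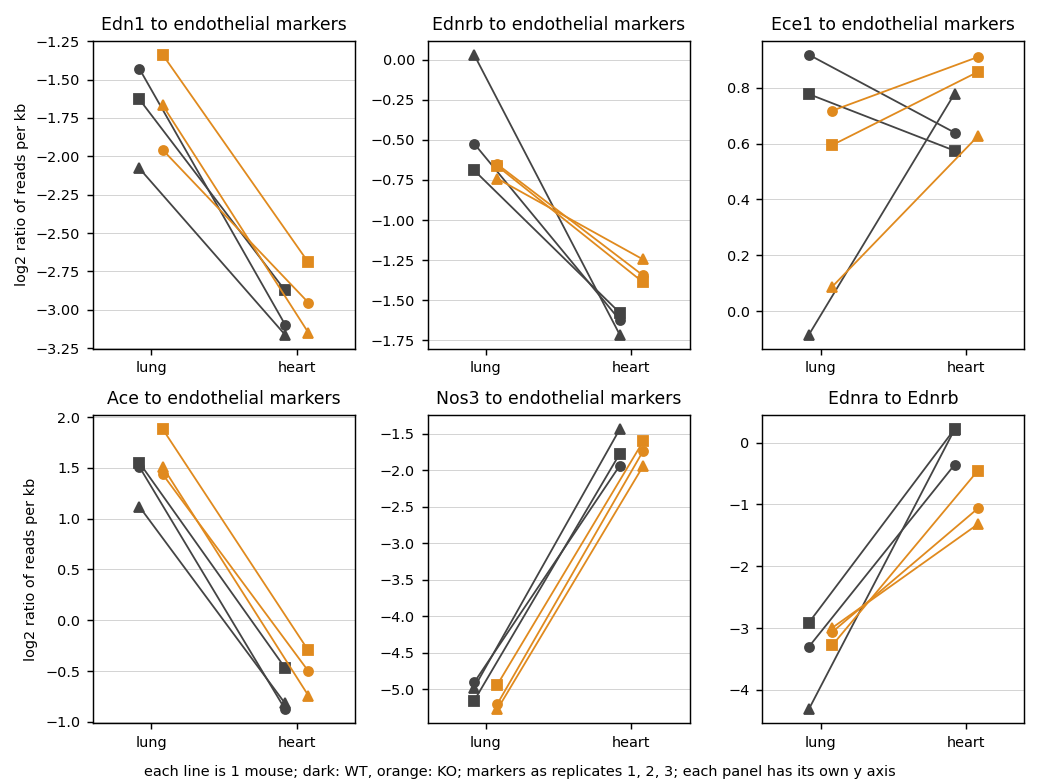
Log2 ratio of reads per kilobase (y axis, a separate scale in each panel) in the lung and heart of each mouse (x axis). Each line is 1 mouse, dark for WT and orange for KO. The first 5 panels set a member against the mean of 6 endothelial markers, and the last sets Ednra against Ednrb. All 6 lines run the same way in every panel but that of Ece1, and the 3 KO hearts are the lowest hearts for Ednra to Ednrb.

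In the lung none of the 8 members tested differed between KO and WT past the thresholds, beside 0.0665% of 16551 genes called. None had an unadjusted p under 0.05 by limma either (5.93% of all genes did). Agt was the member whose groups did not overlap, with all 3 KO lungs above all 3 WT lungs, as in 6.41% of all genes in that direction. Its log2 fold change was 0.78 (SE 0.35, 95% interval −0.01 to 1.58, limma adjusted p = 0.829), on 16.7 to 24.3 estimated counts in WT. Ace had a log2 fold change of 0.37 (SE 0.21, 95% interval −0.11 to 0.84, limma adjusted p = 0.841) and Agtr1a of 0.33 (SE 0.21). Edn1 had 0.20, Ednra 0.21, Nos3 0.02, Ece1 −0.05 and Ednrb −0.15. The median was 0.21 over the 8 members and 0.01 over all genes tested. With libraries scaled by their totals, which shifts the median gene by 0.29, Ece1 was at 0.24 and Ednrb at 0.14. The 95% intervals left room for changes of up to 0.86 log2 units in Ece1, which had the largest standard error of the 8 (0.36), and up to 0.44 in Nos3.

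WT replicate 3 was at the edge of the WT lungs in several members at once. It was the lowest WT lung for Edn1, Ednra, Ece1, Ace, Agt, Agtr1a and Nos3 and the highest for Ednrb. The next WT lung was close for Agt (4.37 against 4.41), Agtr1a (6.96 against 7.05) and Nos3 (7.34 against 7.37). KO replicate 3 was lower still for Ece1 (12.09) and Nos3 (7.28). In WT replicate 3 the summed level of 5 lung capillary markers (5 of 5 found, none at 0) was 12.83. The other WT lungs had 13.47 and 13.41 and the KO lungs 13.03 to 13.27, above WT replicate 3. In the same library Rn7s1 took 2.1% of the summed abundance, against 34% and 29.9% in the other WT lungs. The KO lungs had 10.5%, 3.2% and 20.3%. Red cell markers summed to 16.21 against 14.51 and 14.62 in WT, and the KO lungs had 16.72, 12.40 and 13.13. The endothelial markers summed to 15.33 against 15.28 and 15.34. Their mean log2 level in WT replicate 3 was the lowest of the lungs, 11.97 against 12.08 and 12.19 in WT and 12.20 to 12.31 in KO. Heart muscle markers summed to 14.44 in WT replicate 3, against 13.67 and 13.47 in WT and 13.52, 12.81 and 12.94 in KO. Atrial muscle markers (3 of 3 found) summed to 12.38, against 11.83 and 11.03 in WT and 11.32, 11.22 and 10.37 in KO. Lung epithelium markers summed to 18.52, the lowest of the lungs, against 18.59 and 18.93 in WT and 18.82, 18.91 and 18.92 in KO. The part of any of these in the members' values was not tested. Without this library the KO differences of Edn1, Ednra and Nos3 turned to −0.04, −0.03 and −0.01, that of Ednrb to 0.0095, that of Ace was 0.17, and that of Ece1 went further from 0, to −0.39. No member was called with or without it.

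In the heart also no member was called, beside 0.085% of 15303 genes. Ednra and Ednrb had an unadjusted p under 0.05 by limma, as did 7.46% of all genes, and they pointed in opposite directions. Ednrb was at 9.75 to 9.94 in the KO hearts and 9.36 to 9.53 in the WT hearts, so that the groups did not overlap, as in 7.82% of all genes in that direction. Its log2 fold change was 0.36 (SE 0.13, 95% interval 0.08 to 0.65, limma unadjusted p = 0.0186, adjusted p = 0.609). Set against the endothelial markers, Ednrb was higher in all 3 KO hearts, by 0.31 log2 units (exact permutation p = 0.1, adjusted p = 0.27 over the 24 ratio tests). This ratio and that of Ednra to Ednrb rest on the same Ednrb reads, so that they are not separate results. Over the 8 ratios in lung and heart, KO and WT were apart for these alone. Ednra had a log2 fold change of −0.62 (SE 0.22, 95% interval −1.11 to −0.12, limma unadjusted p = 0.0199, adjusted p = 0.609), with KO replicate 2 lying above WT replicate 1. Smooth muscle markers (4 of 4 found, none at 0) had a summed log2 level of 13.99 to 14.23 in the KO hearts and 13.20 to 13.49 in the WT hearts, and their part in either result was not tested.

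The other 6 members tested had no unadjusted p under 0.05 in the heart. Ace had a log2 fold change of 0.26 (95% interval −0.09 to 0.62), Edn1 of 0.16 (−0.26 to 0.59) and Ece1 of 0.14 (−0.18 to 0.45). Leaving out 1 library moved Edn1 to between 0.055 (without KO replicate 2) and 0.26 (without KO replicate 3), and Ece1 to between 0.039 (without WT replicate 2) and 0.22 (without KO replicate 3). For Agt it was −0.13 (−0.79 to 0.53), for Agtr1a −0.03 (−0.36 to 0.29) and for Nos3 0.0042 (−0.35 to 0.36, and −0.04 with the median gene centred). For Ece1, Agtr1a and Nos3 the intervals leave out a change of 1.5-fold in either direction.

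The KO minus WT difference of the lung was then set against that of the heart, which asks whether a member responds otherwise in one organ. No member was called, beside 0.00566% of 17666 genes, which is 1 gene. Ednra had an unadjusted p under 0.05, with a difference of 0.83 log2 units (SE 0.35, limma unadjusted p = 0.0336, adjusted p = 0.623), and so did Ednrb, with −0.51 (SE 0.20, limma unadjusted p = 0.0251, adjusted p = 0.599). Over all genes 7.88% had such an unadjusted p. For the other 6 members the difference ranged from −0.18 in Ece1 to 0.91 in Agt.

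**Figure D4:**
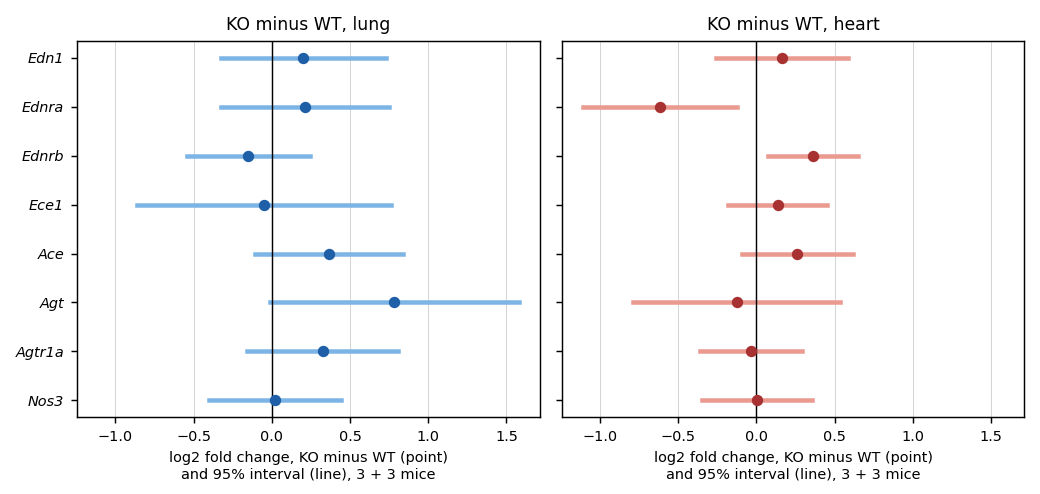
Log2 fold change of KO over WT (x axis) of the 8 members tested, in lung (left) and heart (right). Points are limma estimates from 3 KO and 3 WT mice and lines their 95% intervals. All 8 lung intervals include 0, and in the heart those of Ednra (−0.62) and Ednrb (0.36) do not, before adjustment over all genes.

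At the level of transcripts, Ace in both tissues was mostly its full-length transcript ENSMUST00000001963.14, at 68.7% to 82.1% of Ace reads per kilobase in a library. The transcript of the inner start, whose first coding exon is printed above, had 63.7, 77.6 and 0 estimated counts in WT lung and 77.3, 197 and 111 in KO lung. It was listed at 0 in all 6 hearts, where Ace as a whole had 856 to 2342 estimated counts. Its share of Ace reads per kilobase in the lung was 0.58% ± 0.51 in WT and 1.01% ± 0.35 in KO (SD, n = 3), and its reads are divided from those of the overlapping full-length transcript by estimation.

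For Ece1 the full-length transcript ENSMUST00000102518.10 took 57.4% to 83.9% of the reads per kilobase. The Ece1 transcripts overlap, so that their reads too are divided by estimation. The transcript with its own first coding exon, ENSMUST00000151110.4, took 7.45%, 5.90% and 13.3% in the WT hearts and 19.4%, 13.6% and 26.3% in the KO hearts. These groups did not overlap, with means of 8.87% and 19.8%, on 20.5 to 51.8 estimated counts in WT and 107 to 186 in KO (exact two-sided permutation p = 0.1, adjusted p = 0.6 over 24 tests of 8 transcripts). In the lung its mean was 6.66% in WT and 6.61% in KO. Over the 8 transcripts tested in both tissues, KO and WT shares were apart for this transcript in heart and for Ednrb ENSMUST00000172237.2 in lung alone. Any groups that are apart give the exact p of 0.1, the smallest these numbers of mice allow, so that this p does not single out either share.

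The deposited Ece1 gene value departed from the sum of its transcripts by up to 0.54 log2 units. On summed transcripts Ece1 was at 12.89, 13.04 and 11.90 in WT lung and 12.96, 12.78 and 12.63 in KO lung, so that KO replicate 3 no longer stood apart while WT replicate 3 still did. In KO lung replicate 3 the 172-nucleotide transcript had 20.3 estimated counts and 9.37% of Ece1 reads per kilobase, against 74.4 to 160 counts and 23.5% to 30.6% in the other lungs. Its coding part is overlapped by the 3 other Ece1 transcripts, so that its counts rest on estimation, and its short length raises its share per kilobase. The KO minus WT difference in the lung was 0.18 on summed transcripts and −0.05 on gene values.

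**Figure D5:**
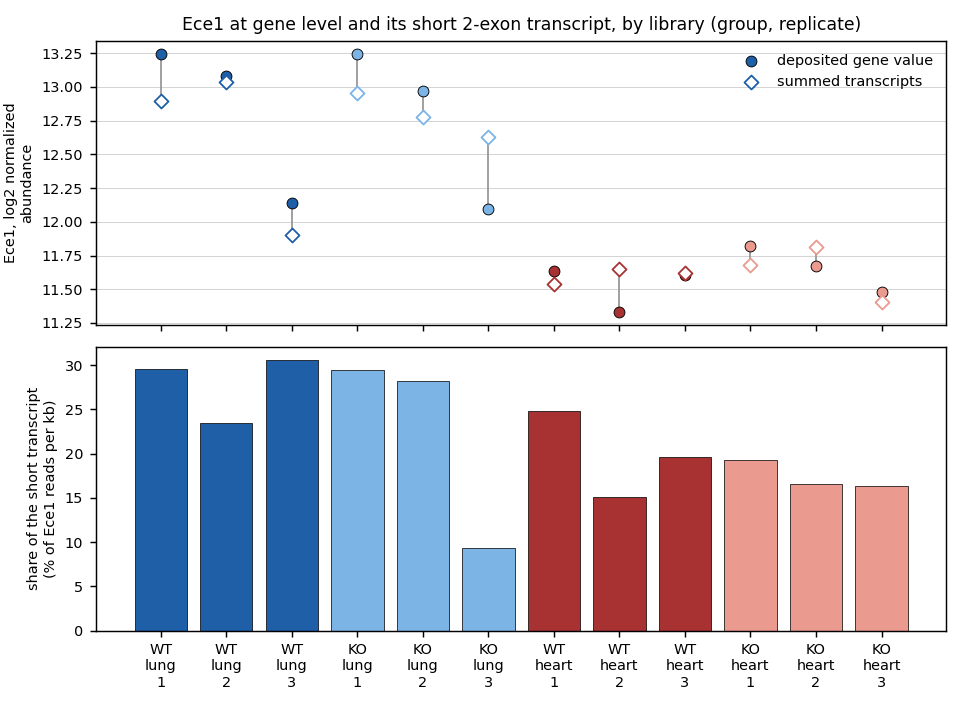
Top, Ece1 log2 normalized abundance in each of the 12 libraries (x axis, group and replicate), as the deposited gene value (filled circles) and as summed transcripts (open diamonds). Bottom, the estimated share of the 172-nucleotide, 2-exon transcript in Ece1 reads per kilobase (%, bars from 0). The KO lung replicate 3 has the widest gap between both values and the smallest share, 9.37%.

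Ednrb was read mainly from ENSMUST00000022718.11 and ENSMUST00000172237.2. The latter took 64.9%, 67.9% and 66.9% of Ednrb reads per kilobase in WT lung and 55.8%, 29.9% and 64.1% in KO lung. The KO lungs lay below the WT lungs, with KO replicate 2 far below the rest and KO replicate 3 close to the WT range (means of 66.6% and 49.9%, exact two-sided permutation p = 0.1, adjusted p = 0.6). The smallest adjusted p among the 24 tests of transcript shares was 0.6, and with these numbers of mice none under 0.05 was possible.

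Of 36 other genes of the 3 pathways, 29 were tested between lung and heart, and 15 were higher in lung and 2 higher in heart, beside 30.1% and 21.2% of all genes tested. The median log2 fold change was 0.89 over these 29 and 0.31 over all genes tested. In the endothelin list 2 of 3 tested genes were higher in lung, Mme (3.39), which encodes neprilysin, a peptidase that degrades endothelin, and Edn3 (3.25), which encodes endothelin-3. In the angiotensin list 4 of 10 were higher in lung, near the share of all genes, led by Enpep (2.86), which encodes the aminopeptidase that trims angiotensin II. The renin receptor gene Atp6ap2 (1.5) and the peptidase genes Anpep (1.12) and Prcp (0.89) were also higher in lung, and Thop1 (−0.63), which encodes an oligopeptidase, was higher in heart. The lungs and hearts of Thop1 overlapped, and with libraries scaled by their totals it was at −0.07 and not called.

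In the nitric oxide list 9 of 16 tested genes were higher in lung and 1 in heart, beside the 30.1% and 21.2% of all genes. One of the 9, Arg2, an arginase that competes for the same substrate as the synthase, was at 0 to 2.28 in the hearts and passed the filter through the lungs alone, so that its difference (5.61) had to be large. Pde5a (4.30), which breaks down the cyclic GMP made in response to nitric oxide, was higher in lung, as was Gucy1b1 (2.16), a subunit of the guanylyl cyclase that nitric oxide activates. Nostrin (3.63) and Cav1 (1.76), whose products bind and restrain endothelial nitric oxide synthase, were higher in lung as well, where Nos3 itself was lower. Nos2 (−1.40), the inducible synthase, was higher in heart.

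None of the pathway genes was called between KO and WT, of 26 tested in lung and 27 in heart. In the lung the smallest unadjusted p was that of Arg2, at 6.78, 6.92 and 6.90 in WT and 6.32, 6.68 and 6.31 in KO (log2 fold change −0.43, SE 0.21, limma unadjusted p = 0.0767, adjusted p = 0.836). Ddah2 (−0.28), which encodes an enzyme that removes an inhibitor of the synthases, and Gucy1a1 (−0.26), which encodes the other subunit of the guanylyl cyclase, came next. In the heart it was that of Nos1, the neuronal synthase, at 3.55, 4.72 and 2.26 in WT and 6.83, 5.38 and 5.59 in KO. The 3 KO hearts lay above the 3 WT hearts, as in 7.82% of all genes, with a log2 fold change of 2.42 (SE 0.64, limma unadjusted p = 0.00455, adjusted p = 0.481). The higher group mean of Nos1, 5.93, was under the threshold of 6, so that it could not be called at any p. Nos2 had −0.63 (limma adjusted p = 0.600) and Gucy1b1 0.32 (limma adjusted p = 0.694).

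The genes whose profile over the 12 libraries was nearest to a member's were found among 17666 genes by the root mean square difference of centred log2 values. They were Tbx3 (0.15) and Ano1 (0.18) for Edn1, Foxj2 (0.12) and Map2k3 (0.13) for Ednra, and Eva1c (0.11) and Nat2 (0.12) for Ednrb. For Ece1 they were Rab5c (0.17) and Gas2l1 (0.19), for Ace Clec1a (0.20) and Emp2 (0.21), and for Agt Cacna1h (0.25) and Spata6l (0.27). For Agtr1a they were Slc6a8 (0.14) and Med12l (0.16) and for Nos3 Nomo1 (0.12) and Ppp1r12b (0.13). No member was among the 2 nearest profiles of another, and the 12 libraries share their organ and mouse, so that they are not 12 independent points.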

How the data were processed

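The authors quantified the reads with Salmon against GENCODE vM33 transcripts (mm39). They deposited 55679 genes and 147907 transcripts, both as log2 values. The deposited transcript values are log2(1 + estimated count). For genes with 1 transcript, a log2 gene value is this plus a constant for each library, from −0.63 to 0.80, and at least 95.7% of such genes per library were within 0.01 of it. How several transcripts were joined into a gene value is not given in the sources used here. The submitters' processing notes also name cutadapt, STAR and limma 3.42.2.

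Deposited gene values were tested with limma 3.58.1 (R 4.3.3, lmFit, eBayes with a variance trend), on genes with 3 or more libraries at 3.46 or above. That value is log2 of 10 plus 1 on the normalized scale, and the estimated count it stands for differs with each library's constant. KO and WT were compared within each tissue, and tissues and their interaction in 1 model of 4 group means over 12 libraries. Changes of low genes are understated, since 1 count was added before the log2. Ratios and transcript shares used transcript estimates per kilobase (1 count added for ratios) and exact two-sided tests, with sign flips over 6 mice or permutations of 3 against 3. A transcript was tested where its mean share reached 10% in a group of a gene with 2 or more such transcripts. Copies were searched with blastn 2.17.0 (at least 95% over at least 500 bases), and the overlaps of Ednra with Gm45714 and of Agt with Cog2 were antisense and Agt also matched C2cd5 antisense.

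Lung and heart of a mouse are paired by the mouse identifiers in the labels. Their deviations from group means correlated at 0.049, 0.136 and −0.024 in WT and 0.020, −0.068 and −0.036 in KO replicates 1, 2 and 3. One gene of the pathway lists, and a ratio that used it, are not reported here. The members and all gene and marker lists were chosen with earlier results of these data known. Named pathway genes are those called between KO and WT, or else the 3 of smallest unadjusted p per tissue, and up to 5 per list and direction called between lung and heart. Alternatives were limma-voom, summed transcripts, other scalings, filters and pseudocounts, no variance trend, the replicate block and leaving out each library.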

Additional observations from a re-analysis of the deposited data

How the results depend on the processing

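No member was called between KO and WT, or for the difference between tissues, under any alternative, and all 7 members called between lung and heart kept their direction. Scaling by library totals shifted the median gene by 0.29 (KO over WT, lung) and 0.57 (lung over heart), and with it the log2 fold changes of Ece1 and Ednrb in KO lung turned to 0.24 and 0.14 and those of Ednra, lung over heart, to 0.0079 in all mice and 0.55 in KO mice, while Agt lost its call in KO mice (−0.64) and Ednra its call in WT mice (−0.54). Summed transcripts turned Ece1 in KO lung to 0.18, and centring on the median gene turned Nos3 in KO heart to −0.042. Ednra was called between lung and heart with the median gene centred (−0.78) and in 5 of the 12 fits that left out a library, without WT lung replicate 2 or KO lung replicate 1, or WT heart replicate 1 or KO heart replicate 1 or 3 (−0.66 to −0.44 over all 12). Adam19 in the heart kept its −3.14 without a variance trend and lost its call.

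Leaving out 1 library at a time gave, for KO over WT in lung, −0.036 to 0.34 in Edn1, −0.026 to 0.42 in Ednra, −0.24 to 0.0095 in Ednrb, −0.39 to 0.29 in Ece1 and −0.050 to 0.10 in Nos3. In heart it gave 0.055 to 0.26 in Edn1, 0.039 to 0.22 in Ece1, −0.33 to 0.19 in Agt, −0.13 to 0.033 in Agtr1a and −0.090 to 0.13 in Nos3, and in lung over heart of KO mice −0.28 to 0.070 in Ednra. Agt in KO heart turned only without KO replicate 2. Genes called between KO and WT numbered 11 in lung (1 with the filter in every library) and 13 in heart (7 with that filter, 21 without KO heart replicate 2). The replicate block for organs of 1 mouse left Ednra at −0.56 and changed no member's call, and 2 genes in place of 1 were called for the difference between tissues (0 to 5 over all alternatives). Other pathway genes called higher in heart numbered 2, and 1 to 7 over the alternatives. The 95% intervals in the text give what 3 mice a group could resolve, and Agtr2 (0 to 12.1 estimated counts) was too low to be tested.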
